A study of Drosophila melanogaster with 837 samples.

Results

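The vacuolar proton pump genes were the 22 genes of 8862 in the series table whose symbol starts with Vha. The symbol rule uses no measured value, but by the paper's methods a gene was kept only with 10 reads in at least 5 cells. The annotation names 11 further proton pump genes without a row, none with 10 reads in more than 3 cells, so the members are the more widely read part of the family. The 22 genes were read in the single cells in which 500 or more genes reached 10 reads, 96.7% of those deposited. In all, 28 cells were left out. By their known place in the pump, 10 of the 22 genes code for V1 subunits, 10 for VO subunits and 2 for accessory proteins. Most of these genes were read in most cells, and their summed level differed widely between cells that carried reads of different tissue markers. It was 4.90-fold lower in cells with the fat body marker apolpp, and 3.56-fold to 4.71-fold higher in cells with esg, mex1 or Ptx1, than in the cells without that marker. Which gene supplied a subunit also differed, for subunit A in cells with Mhc and for subunit a in cells with mex1 or Ptx1.

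The vacuolar ATPase is a rotary machine that spends ATP to move protons across a membrane, and it acidifies lysosomes, endosomes and secretory vesicles in nearly all cells. Its V1 head, on the cytosolic side, hydrolyses ATP, and its VO sector, in the membrane, carries the protons. In flies, as in other animals, several subunits are coded by more than 1 gene, and some epithelia, such as the acid-secreting region of the midgut and the Malpighian tubule, use the pump at the plasma membrane.

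All cells came from 1 group, Mhc-GFP+ DAPI- DRAQ5+ cells that the labels name somatic muscle, sorted from dissociated embryos aged 19 to 20 h of the Mhc-TAU-GFP stock, a GFP reporter of the muscle gene Mhc, for myosin heavy chain. The embryos were pooled, and the labels name no animal or culture. Each cell had its own full-length Smart-seq2 library, made with extra primers for the Hox genes, in 1 well of 15 plates. All the cells are therefore 1 sample: no test between groups could be made, intervals are exact Clopper-Pearson 95% intervals that cover counting error only, and an SD over plates is a technical spread.

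Reads outside 11 ribosomal RNA features had a median of 402700 per cell and ran from 34570 to 5394000, and those features took a median of 34.6% of all reads. The cells were split by 10 or more reads of 6 markers: Mhc, the hemocyte gene Ppn (papilin), apolpp (a lipoprotein made in fat body), esg (escargot, a transcription factor of progenitors and of several epithelia), the midgut gene mex1 and the transcription factor Ptx1. Mhc was read in only 13.5% of the cells, of which 32 were on plate 17, Ppn in 28.2%, apolpp in 41.8%, esg in 11.6% (94 cells), and mex1 and Ptx1 in 4.94% each (40 cells), so the cells with reads of the muscle gene were a minority of those labelled somatic muscle. The classes overlap: 100 cells had 2 or more of these markers and 70 had none. Levels of a gene are compared as CPM, its reads scaled to a common total outside the ribosomal RNA features, and levels of different genes as TPM, which takes transcript length into account. The median log2 ratio over all 6501 genes tested is given beside each comparison.

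Of the V1 genes, 8 of 10 were broad, that is, read in at least 25% of cells. Vha13, for subunit G of the peripheral stalk (chromosome 3R of BDGP6, 19643018 to 19644386), was read in 78.99% of cells (interval 76.01 to 81.75), the most of any member. Vha14-1, for subunit F of the central stalk, followed with 74.2%. Vha26, for the stalk subunit E, was read in 66.9% of cells, Vha44, for subunit C, in 62.55%, Vha36-1, for the central-stalk subunit D, in 60.7%, and VhaSFD, for the regulatory subunit H, in 57.35%. Vha68-2, for the catalytic subunit A, and Vha55, for the nucleotide-binding subunit B, were each read in 61.7% of cells (interval 58.23 to 65.05). The 5 genes Vha44, Vha36-1, Vha68-2, Vha55 and VhaSFD had overlapping intervals, so their order is not resolved by counting error. The other V1 genes were Vha68-1 (73 cells, 9.02%) and Vha36-3 (7 cells, 0.865%), further genes for subunits A and D.

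Of the VO genes, 6 of 10 were broad. VhaM9.7-b, for the small subunit e (chromosome 3L, 21539862 to 21541215), was read in 76.1% of cells (interval 73.05 to 79.04), and Vha16-1, for the proton-carrying ring subunit c, in 72.9% (interval 69.73 to 75.96). VhaPPA1-1, for the ring subunit c'', was read in 65.3% of cells, and VhaAC39-1, for subunit d, which joins the ring to the central stalk, in 58.96%. Subunit a, which forms the path of the protons beside the ring, was read mostly from Vha100-2 (54.8%) and Vha100-1 (32.9%). The remaining genes for subunits a and e were read in few cells: VhaM9.7-c in 18.3% of cells, Vha100-5 in 36 cells (4.45%), VhaM9.7-a in 18 (2.23%) and Vha100-4 in 15 (1.85%). Both accessory genes were broad, VhaAC45 with 64.4% of cells and VhaM8.9, the fly homologue of the prorenin receptor, with 63.3%.

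Broad genes made up 72.7% of the members and 28.6% of the 8829 other genes outside ribosomal RNA. On single plates, the share of cells with Vha13 lay between 65% and 88.5%, and each of the 16 broad genes was read in cells of all 15 plates. When each cell was thinned to 106282 reads, which left out 81 shallower cells, the share was 73.4% for Vha13, 22.7% for Vha100-1 and 10.7% for VhaM9.7-c, lower than before, and 4.53% for Vha100-5, close to its share before thinning.

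**Figure D1:**
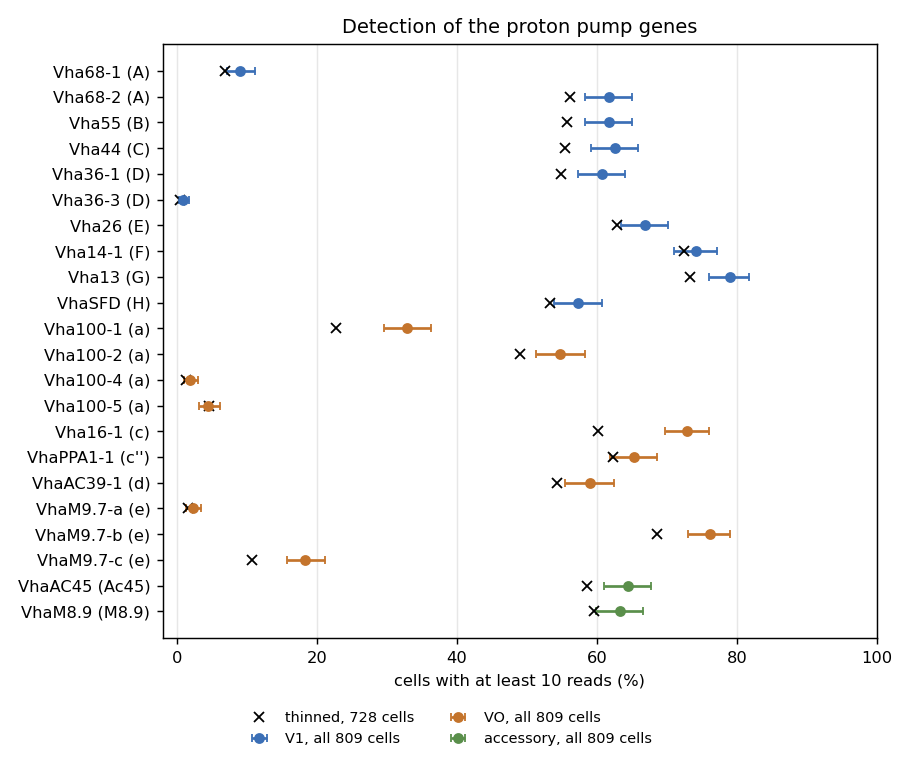
Share of cells with at least 10 reads of each proton pump gene (x axis, percent; subunit in brackets), with points and exact 95% intervals over all cells that passed and crosses for the thinned cells. The 16 broad genes lie between 32.9% and 78.99%, and the 6 other genes, all of them further genes for subunits A, D, a and e, at 18.3% or below.

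Mean levels per transcript length differed 33.7-fold among the 16 broad genes as TPM, and 19.2-fold as CPM divided by the length of the longest transcript, with Vha13 highest and Vha100-1 lowest on both scales. Vha13 had the highest mean, 815.7 TPM (plates 817.1 ± 183.7, SD, n = 15 plates), then VhaM9.7-b with 560.7 TPM (SD over plates 106.2) and Vha14-1, which did not differ from it beyond that SD. Vha36-1 (286.3 TPM), VhaPPA1-1 (276.9 TPM), VhaM8.9 (240.5 TPM), Vha44 (211.1 TPM) and VhaAC45 (206.3 TPM) followed, and neighbours in this order differed by less than the SD over plates. Vha26 and Vha68-2 (187.7 and 187.1 TPM), VhaAC39-1 (144.4 TPM), Vha55 and VhaSFD (134.9 TPM each) and Vha16-1 (105.2 TPM) came next, again with steps smaller than the SD over plates. The lowest broad members were the genes for subunit a, Vha100-2 with 71.7 TPM (plates 69.1 ± 43.7) and Vha100-1 with 24.2 TPM (plates 23.1 ± 12.7). The 3 genes with the highest TPM have short transcripts, the longest annotated ones being 943 bases for Vha13 and 1216 bases for VhaM9.7-b. Length was used in the TPM, and any remaining effect of short transcripts on these full-length libraries was not tested.

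A cell had reads of a median of 12 of the 22 genes (range 0 to 21), or 10 after thinning. All 16 broad genes were read together in 60 cells (7.42%). In 10 cells no member reached 10 reads, and 9 of these were apolpp-positive. The 10 cells had a median of 105600 reads and 81.9% of reads on ribosomal RNA features, against 409000 reads and 34.5% in the others. The median number of members was 16 in mex1-positive cells against 11 in the rest, 16 in Ptx1-positive cells against 11, 14 in esg-positive cells against 11, and 8.5 in apolpp-positive cells against 13. In Ppn-positive cells it was 13 against 11, and in Mhc-positive cells 11 against 12. After thinning it was 12 against 9 for Ppn and 8 against 10 for Mhc. Across the thinned cells, the 120 pairs of broad genes had a median Spearman rho of 0.40, from 0.06 for Vha14-1 with Vha100-2 to 0.63 for VhaPPA1-1 with VhaM8.9. Cells share plates, so these values are descriptions. Within cells of a single marker the median rho was 0.49 with mex1 only (19 cells), 0.49 with Ptx1 only (18 cells), 0.37 with esg only (61 cells), 0.19 with Mhc only (42 cells), 0.16 with apolpp only and 0.10 with Ppn only.

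The summed level of the 22 genes had a median of 3423 CPM over all cells, or 0.342% of the reads. It was highest in the Ptx1 class: Ptx1-positive cells had a lowest, median and highest value of 990, 19160 and 115300 CPM, and Ptx1-negative cells a median of 3171 CPM and a highest value of 63810 CPM. For mex1 the medians were 13820 CPM in positive and 3193 CPM in negative cells, and for esg 13590 CPM in positive and 2849 CPM in negative cells. Of the Ptx1-positive cells 95% lay above the median of the negative ones, of the mex1-positive cells 92.5% and of the esg-positive cells 95.7%, while the ranges overlapped. Apolpp-positive cells had a median of 1728 CPM, against 5610 CPM in apolpp-negative cells, and 94.1% of them lay below the lower quartile of the negative cells.

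**Figure D2:**
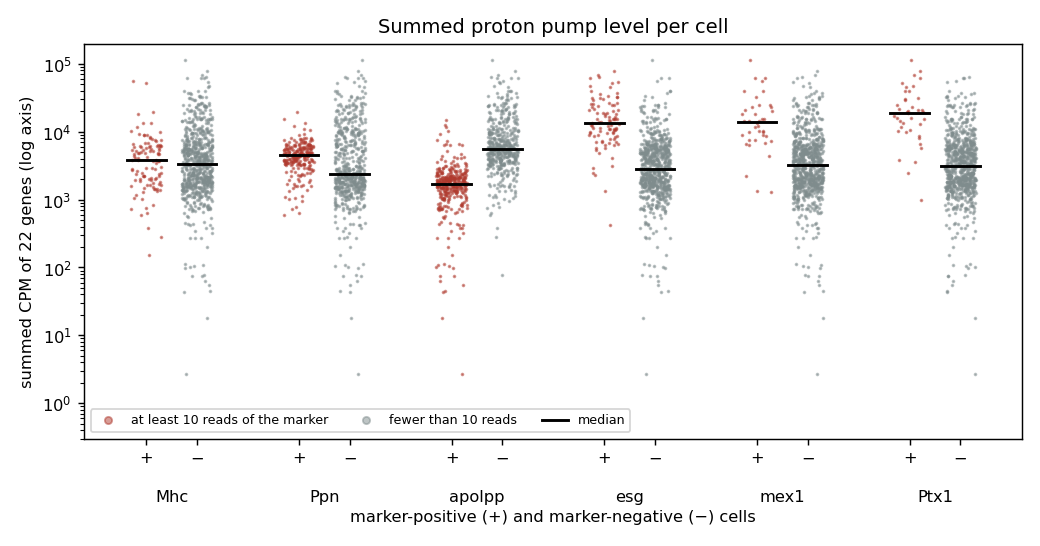
Summed CPM of the 22 proton pump genes in each cell (y axis, log scale) for marker-positive and marker-negative cells, with the class median as a line. The medians of the esg, mex1 and Ptx1 classes, 13590, 13820 and 19160 CPM, stand above those of their negative cells, and that of the apolpp class, 1728 CPM, below.

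As log2 ratios of mean CPM, the sum differed by 2.23 for Ptx1 (means of 25510 CPM in positive and 5418 CPM in negative cells), 1.96 for esg (18680 and 4798 CPM), 1.83 for mex1 (20240 and 5692 CPM) and -2.29 for apolpp (1958 and 9607 CPM). The median over all genes tested was 0.24, 0.30, 0.03 and -0.72 in the same comparisons, so the sum differed by more than the bulk of genes in each. Compared within plates, with at least 3 cells on each side, the sum was higher in 7 of 7 plates for Ptx1 (mean log2 ratio 1.84 ± 0.86, SD), 14 of 14 for esg (1.78 ± 0.68) and 9 of 9 for mex1 (1.83 ± 0.81), and lower in 15 of 15 for apolpp (-2.37 ± 0.33). These differences are larger than the spread between plates. Median depth differed little, 398500 and 402700 reads in Ptx1-positive and Ptx1-negative cells, 390400 and 403400 for mex1, 357200 and 408300 for esg, and 401100 and 406700 for apolpp. The share of ribosomal RNA reads was lower in esg-positive cells, with a median of 25.9% against 36.4%, and higher in apolpp-positive cells, with 41.2% against 32.5%; its part in the difference was not tested, and the libraries were scaled without these reads.

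For Ppn and Mhc the mean and the median of the sum pointed in different directions. Ppn-positive cells had a mean of 4697 CPM and a median of 4541 CPM, against 7084 and 2426 CPM in Ppn-negative cells. Mhc-positive cells had a mean of 5358 CPM and a median of 3856 CPM, against 6576 and 3308 CPM in Mhc-negative cells. The log2 ratio of means was -0.59 for Ppn (all genes -0.34; lower in 14 of 15 plates) and -0.30 for Mhc (all genes -0.05; lower in 11 of 13 plates), and the log2 ratio of medians was 0.90 and 0.22. Without plate 17, the ratio of means for Mhc was -0.72. Both negative classes hold apolpp-positive cells, with a low sum, and esg-, mex1- and Ptx1-positive cells, with a high one. In cells with exactly 1 of the 6 markers, the median sum was 16020 CPM for Ptx1 (18 cells), 14430 CPM for mex1 (21 cells), 14210 CPM for esg (66 cells), 5240 CPM for Mhc (47 cells), 4566 CPM for Ppn and 1692 CPM for apolpp, and in the 70 cells with none it was 5519 CPM. The interquartile ranges of Mhc only (2859 to 6500 CPM) and Ppn only (3464 to 5603 CPM) overlapped, as did those of esg, mex1 and Ptx1 only.

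**Figure D3:**
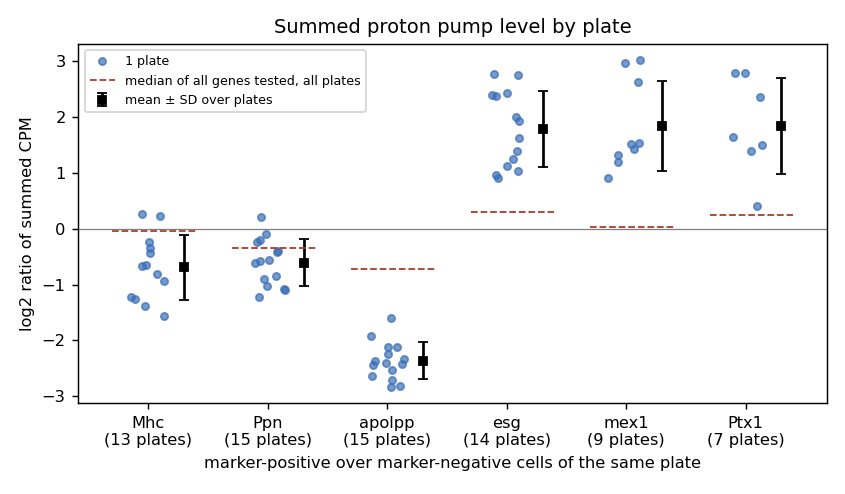
Log2 ratio of the summed proton pump level, marker-positive over marker-negative cells of the same plate (y axis), 1 point per plate, with the mean ± SD over plates and a dashed line for the median of all genes tested. All plates lie above 0 for esg, mex1 and Ptx1 and below 0 for apolpp, while those of Mhc and Ppn lie on both sides of 0.

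In apolpp-positive cells, nearly every subunit was low. Of the 18 members read in at least 40 cells, 16 were at least 2-fold lower and none at least 2-fold higher, where 40.4% of all genes tested were as low and 13% as high. VhaPPA1-1 had a mean of 76.2 CPM in apolpp-positive and 638.4 CPM in apolpp-negative cells (log2 ratio -3.05), and was lower in 15 of 15 plates. Vha26 (-2.97) followed, then VhaAC45 with 90.8 and 710.4 CPM (-2.95) and VhaM8.9 with 79.4 and 613.3 CPM (-2.93), each lower in all 15 plates. The gap was also seen in the thinned cells, where VhaPPA1-1 was read in 33.99% of apolpp-positive and 82.6% of apolpp-negative cells. The members that did not pass 2-fold were Vha14-1, with 235.2 and 388.8 CPM (-0.72, the size of the median over all genes), and VhaM9.7-c, with 18.4 and 30.1 CPM (-0.68). Thinned shares of Vha14-1 were 72.6% in apolpp-positive and 72.2% in apolpp-negative cells, and the exact intervals overlap. The fat body list used to check the class had 3 of its 4 tested genes at least 2-fold higher in these cells, with a median summed level of 3210 CPM (range 0 to 21930) in apolpp-positive and 179.5 CPM (range 0 to 6861) in apolpp-negative cells. Of the other lists, 19 of 19 muscle and 8 of 10 hemocyte markers were at least 2-fold lower. The median summed level of the hemocyte list went the other way, with 43520 CPM in apolpp-positive and 24430 CPM in apolpp-negative cells. The part of these lists in the low pump level was not tested.

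In esg-positive cells, 15 of 18 members were at least 2-fold higher and none at least 2-fold lower, against 26% and 21.5% of all genes tested. Vha68-2 had the largest ratio, with a mean of 2505 CPM in esg-positive and 336.9 CPM in esg-negative cells (log2 ratio 2.89; medians 1647 and 83.5 CPM). VhaSFD had 1347 and 231.3 CPM (2.54) and Vha26 had 1900 and 329.3 CPM (2.525), and all 3 were higher in 14 of 14 plates. After thinning, Vha68-2 was read in 91.9% of esg-positive and 51.4% of esg-negative cells. The members that did not pass 2-fold were Vha14-1 (574.5 and 291.8 CPM, 0.97), Vha68-1 (62.6 and 35.4 CPM, 0.80) and VhaM9.7-c (14.9 and 26.6 CPM, -0.79). The other subunit a genes were not detected in this class: Vha100-4 and Vha100-5 reached 10 reads in 0 of 94 cells. This allows a share of up to 3.19% by the limit of 3 counts in 94, with an exact upper bound of 3.85%. Over all cells the share of Vha100-4 was 1.85%, below these limits, so its 0 does not set the class apart. The share of Vha100-5 over all cells was 4.45%, above them. All 4 tested genes of the esg-positive progenitor list, 3 of 4 of the copper cell list, 2 of 3 of the midgut list and 3 of 4 of the glia list were at least 2-fold higher, and 9 of 10 hemocyte markers and 4 of 5 fat body markers were lower. The progenitor list had a median summed level of 2118 CPM in esg-positive and 0 in esg-negative cells, and the fat body list 316.8 and 1407 CPM. The glia list, against its count of higher genes, had 321.7 and 524.7 CPM. The part of these lists in the high pump level was not tested.

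In mex1-positive and Ptx1-positive cells, 15 and 17 of the 18 members were at least 2-fold higher and none at least 2-fold lower. The shares of all genes tested were 16.1% higher and 19.7% lower for mex1, and 22.7% higher and 17.6% lower for Ptx1. The 2 classes share 8 cells, and 11 Ptx1-positive cells also had esg. Vha16-1, for the ring subunit c, had the largest ratio of any broad member in both classes, with means of 2091 and 362.6 CPM in mex1-positive and mex1-negative cells (2.525) and of 2275 and 353.1 CPM in Ptx1-positive and Ptx1-negative cells (2.68). It was higher in 9 of 9 plates for mex1 and 7 of 7 for Ptx1. Vha13 was read in 39 of 40 cells of each class (97.5%), with means of 2167 CPM in mex1-positive and 480 CPM in mex1-negative cells (2.17). The members that did not pass 2-fold included the widely read genes for subunit a: for mex1 they were Vha100-2 (286.4 and 259.3 CPM, 0.14), Vha100-1 (0.60) and VhaM9.7-c (0.72), and for Ptx1 Vha100-1 (131.8 and 93.4 CPM, 0.49). VhaM9.7-c was read in 20 of 40 Ptx1-positive cells (50%, against 16.6% of Ptx1-negative cells), with means of 60.6 and 23.4 CPM (1.34), and was higher in 7 of 7 plates. Of the marker lists, 4 of 4 copper cell genes and 2 of 2 midgut genes were at least 2-fold higher in mex1-positive cells and 3 of 3 and 2 of 3 in Ptx1-positive cells, each list without the class marker; lab is on both lists. In Ptx1-positive cells 4 of 5 genes of the progenitor list, 2 of 4 of the glia list and 2 of 5 neuron markers were also higher. The median summed level of the glia list was lower, with 156.1 CPM in Ptx1-positive and 499.7 CPM in Ptx1-negative cells. That of the progenitor list was 0 in both. The copper cell list had a median summed level of 400.6 CPM in Ptx1-positive and 0 in Ptx1-negative cells, and 42.8 CPM in mex1-positive and 0 in mex1-negative cells. Of the hemocyte markers 9 of 10 were lower in both classes, and Hml, NimC1, He and eater reached 10 reads in no Ptx1-positive cell. The exact upper bound for 0 of 40 cells is 8.81%. In Ptx1-negative cells Hml was read in 6.37%, below that bound, so its absence does not set the class apart. NimC1, He and eater were read in 16.6%, 16.5% and 20.2% of Ptx1-negative cells. The part of these lists in the high pump level was not tested.

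In Ppn-positive cells, 3 of 18 members were at least 2-fold lower and none higher, against 26.8% and 7.78% of all genes tested, so the members were called no more often than other genes. They were Vha68-2 (-1.43), Vha55 (180.2 and 482.1 CPM, -1.415) and Vha16-1 (237.8 and 530.6 CPM, -1.155), each lower in 15 of 15 plates. VhaM9.7-b went the other way, with 467.3 CPM in Ppn-positive and 340.6 CPM in Ppn-negative cells (0.46), and was read in 87.7% of Ppn-positive against 71.6% of Ppn-negative cells. For most broad members the share of cells was higher in the Ppn class while the mean was lower, as with Vha36-1, read in 75.9% and 54.7% of cells with means of 280.7 and 341.7 CPM. In Mhc-positive cells, 1 of 18 members was at least 2-fold higher and none lower, where 13.9% and 11.8% of all genes were. All 18 tested genes of the muscle list other than Mhc were at least 2-fold higher in this class, with a median summed level of 23760 CPM (range 0 to 362600) in Mhc-positive and 75.98 CPM (range 0 to 178800) in Mhc-negative cells. Of the neuron markers 2 of 5 were higher, with median summed levels of 389.7 and 216.3 CPM, and of the hemocyte markers 9 of 10 were lower. In Ppn-positive cells 7 of 9 hemocyte markers were at least 2-fold higher.

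**Figure D4:**
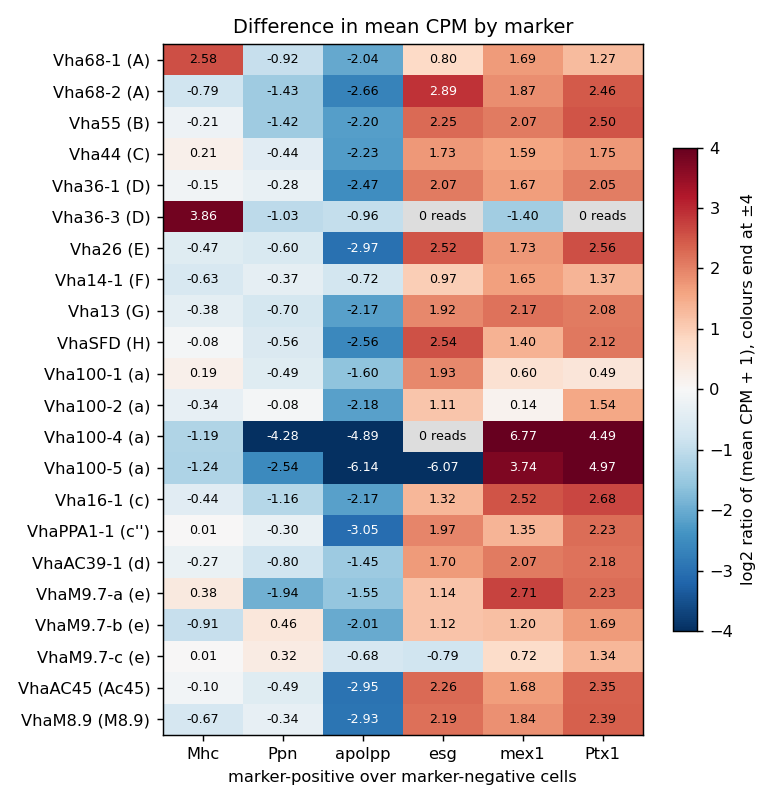
Log2 ratio of (mean CPM + 1), marker-positive over marker-negative cells, for each proton pump gene (rows, subunit in brackets) and marker (columns); grey marks classes with 0 reads, for which no ratio is given. The apolpp column is negative and the esg, mex1 and Ptx1 columns positive for nearly all broad genes. Vha68-1 in the Mhc column (2.58), Vha100-4 in the mex1 column and Vha100-5 in the mex1 and Ptx1 columns stand apart from their paralogs. The Vha100-4 value in the Ptx1 column rests on 3 of 40 cells, and the gene was higher in 1 and lower in 4 of 7 plates.

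The member that passed 2-fold in Mhc-positive cells was Vha68-1, the less widely read gene for the catalytic subunit A. Vha68-1 (FBgn0265262) and Vha68-2 (FBgn0263598) lie 22162 bases apart on chromosome 2L of BDGP6, at 13000770 to 13004107 on the minus strand and 12974322 to 12978607 on the plus strand. Vha68-1 was read in 34 Mhc-positive cells (31.2%, interval 22.7 to 40.8) and in 39 of 700 Mhc-negative cells (5.57%, interval 3.99 to 7.54). Its mean was 140.6 CPM in Mhc-positive and 22.7 CPM in Mhc-negative cells, a log2 ratio of 2.58, and it was higher in 11 of 13 plates. Vha68-2 had 360.7 and 624.4 CPM in the same classes (-0.79) and was lower in 12 of 13 plates. Of the summed TPM of the pair, Vha68-1 supplied 28.5% in Mhc-positive and 4.09% in Mhc-negative cells. How the pseudo-alignment divided reads between these related sequences was not tested, so their split is uncertain where a fragment matches both.

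The difference between the subunit A genes was larger away from plate 17, which held 32 of the Mhc-positive cells. In the 77 Mhc-positive cells of the other plates, Vha68-1 was read in 40.3% (interval 29.2 to 52.1) and Vha68-2 in 36.4% (interval 25.7 to 48.1), with means of 191.9 and 135.4 CPM. Among the Mhc-negative cells of those plates, Vha68-1 was read in 5.22% and Vha68-2 in 64.8%, with means of 19.6 and 626.8 CPM. Without plate 17 the log2 ratio was 3.23 for Vha68-1 and -2.20 for Vha68-2, and Vha68-1 supplied 58.8% of the subunit A TPM in Mhc-positive and 3.67% in Mhc-negative cells. On plate 17 itself it supplied 2.33% in Mhc-positive cells. Those 32 cells had a median of 203900 reads, against 430000 in the Mhc-positive cells of other plates, and all but 3 of them carried a further marker; the part of either in the difference was not tested. Cells with Vha68-1 and without Vha68-2 numbered 24 among Mhc-positive cells (22.02%, interval 14.65 to 30.97) and 10 of 700 among Mhc-negative cells (1.43%), and after thinning 20 and 9. In the 47 cells with Mhc only, Vha68-1 supplied 45.8% of the pair's TPM, and in cells with esg only 1.16%. Of the neuron markers, nSyb and elav were picked after their values had been seen, and the others are not given for Vha68-1. The gene nSyb was read in 11 of the 73 cells with Vha68-1 (15.1%, against 1.36% of the cells without). The gene elav, for a neuronal RNA-binding protein, was read in 42 (57.5%, against 33.02%), so it was also common in cells without Vha68-1. The part of nSyb and elav in the difference between Mhc-positive and Mhc-negative cells was not tested.

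Subunit a is coded by 4 of the members. Vha100-4 (FBgn0038613) and Vha100-2 (FBgn0028670) are neighbours on chromosome 3R, at 18386841 to 18389805 and 18390323 to 18399169, both on the minus strand. Vha100-5 (FBgn0032373) lies on chromosome 2L at 11738948 to 11744524, and Vha100-1 (FBgn0028671) on 3R at 29131193 to 29137980, both on the plus strand. Vha100-1 and Vha100-2 supplied nearly all of the subunit a TPM in cells with Ppn, apolpp, esg or Mhc only, with Vha100-1 at 39.6% in cells with esg only. In cells with mex1 or Ptx1 the other genes of the family supplied a large share. Vha100-4 overlaps cona, Vha100-2 overlaps Vti1b and Vha100-1 overlaps Alg13 in the annotation, and Vha100-5 overlaps a non-coding RNA; how reads of shared bases were divided was not tested.

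Vha100-5 was read in 36 cells on 12 plates, and 29 of them were among the 72 cells with mex1 or Ptx1. It was read in 19 of 40 Ptx1-positive cells (47.5%, against 2.21% of Ptx1-negative cells), with means of 759.7 and 23.3 CPM (log2 ratio 4.97), and was higher in 7 of 7 plates. In mex1-positive cells it was read in 15 of 40 (37.5%, against 2.73%), with means of 501.9 and 36.7 CPM (3.74), and was higher in 5 and lower in 2 of 9 plates. Only 1 apolpp-positive cell (0.296% of that class) had 10 reads of it. It supplied 68.3% of the subunit a TPM in cells with Ptx1 only and 37.4% in cells with mex1 only. The most reads in a cell were 8964, which is 24.99% of all Vha100-5 reads, and 31 of the 36 cells had at least 100 reads.

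Vha100-4 was read in 15 cells on 9 plates: 7 were mex1-positive, 4 Ppn-positive, 3 Ptx1-positive, 3 apolpp-positive and 2 Mhc-positive, with some in more than 1 class, and 2 had none of the markers. In mex1-positive cells it was read in 17.5%, against 1.04% of mex1-negative cells, with means of 601.5 and 4.51 CPM (log2 ratio 6.77), and was higher in 6 of the 9 plates and lower in none. It supplied 37.7% of the subunit a TPM in mex1-positive and 0.6% in mex1-negative cells, although 36.6% of its reads came from 1 cell. In Ptx1-positive cells the log2 ratio of Vha100-4 was 4.49, from 3 of 40 cells, and it was higher in 1 and lower in 4 of 7 plates. It reached 10 reads in 0 of the 18 cells with Ptx1 only, with an exact upper bound of 18.5%. That bound lies above its share of 1.85% over all cells, so this 0 does not set those cells apart. Vha100-4 and Vha100-5 were read together in 1 cell, where 0.67 were expected from their shares over all cells. The homeotic gene lab (labial), which marks the copper cell region of the midgut, was read in 9 of the 15 cells with Vha100-4 and in 4.28% of the cells without it, and CAH1, for a carbonic anhydrase, in 8 of the 15 and in 15.7% of the cells without it. None of the 36 cells with Vha100-5 had 10 reads of lab, against 5.56% of the cells without it. From the shares of both genes over all cells, 1.91 such cells were expected, so this 0 does not set Vha100-5 apart. CAH1 was read in 13 of the 36 cells (36.1%, against 15.5% of the cells without Vha100-5).

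**Figure D5:**
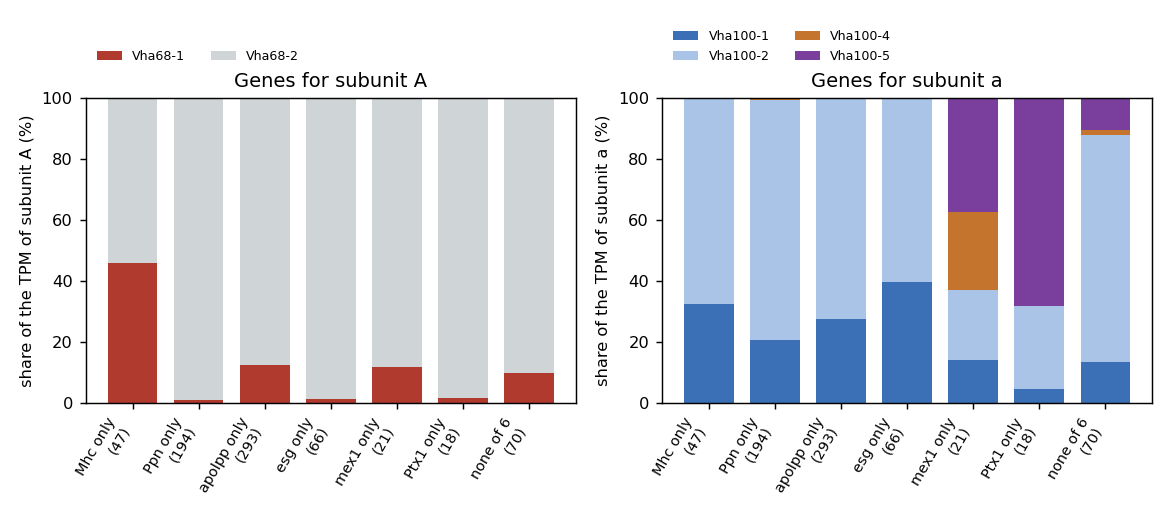
Share of the mean TPM of subunit A (left) and subunit a (right) supplied by each of its genes (y axis, percent), in cells with exactly 1 of the 6 markers and in cells with none (number of cells in brackets). Vha68-1 makes up 45.8% of subunit A in cells with Mhc only, and Vha100-5 makes up 68.3% of subunit a in cells with Ptx1 only.

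The other less widely read genes were found in few cells. Vha36-3, for subunit D, was read in 7 cells on 6 plates, 4 of them Mhc-positive and 4 apolpp-positive, and in none of the esg-, mex1- or Ptx1-positive cells. The exact upper bounds for these classes were 3.85% for esg and 8.81% each for mex1 and Ptx1. They lie above its share of 0.865% over all cells, so the absence does not set these classes apart. VhaM9.7-a, for subunit e, was read in 18 cells on 13 plates. Of these cells, 7 were mex1-positive (17.5% of that class, against 1.43% of mex1-negative cells), 4 each Mhc-positive and esg-positive and 3 each apolpp-positive and Ptx1-positive. The synaptic vesicle gene nSyb was read in 10 of the 18 (55.6%, against 1.39% of the cells without VhaM9.7-a), and in 21 cells in all.

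Related gene lists had other orders across the classes than the members. Over all genes tested, the shares at least 2-fold higher and lower were 13% and 40.4% for apolpp and 7.78% and 26.8% for Ppn. They were 26% and 21.5% for esg, 16.1% and 19.7% for mex1, 22.7% and 17.6% for Ptx1, and 13.9% and 11.8% for Mhc. The mitochondrial ATP synthase, a rotary enzyme of the same superfamily that makes ATP, had all 13 tested genes at least 2-fold higher in apolpp-positive cells (median log2 ratio 1.51, members -2.19) and all 13 at least 2-fold lower in Ppn-positive cells (-1.64, members -0.49). In esg-positive cells 4 of the 13 were at least 2-fold lower and none higher, and in mex1- and Ptx1-positive cells none passed 2-fold in either direction. The list of lysosomal enzymes and membrane proteins was mostly low in apolpp-positive cells: 14 of 20 tested genes were at least 2-fold lower and 1 higher (median -1.85), led by the glycosidase genes Gal (-4.08) and Hexo2 (-3.80) and the cathepsin gene CtsB1 (-3.53), with Gba1b at 3.97. In Ppn-positive cells 9 of the 20 were at least 2-fold higher and 1 lower (median 0.80), with Gal at 5.87, LManII at 4.13 and Hexo2 at 3.63.

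In the classes with the highest pump level, more genes of the lysosomal list were at least 2-fold lower than higher. These counts are to be read beside the shares of all genes tested given above. In esg-positive cells 1 of its 20 tested genes was at least 2-fold higher and 8 lower (median 0.07, members 1.92), with car, for a vesicle fusion protein, at 2.22 and Gal at -5.03. In mex1-positive cells 2 were higher and 6 lower (median -0.08, members 1.67), and in Ptx1-positive cells 4 were higher and 6 lower (median 0.05, members 2.10), with the lysosomal channel gene Trpml (2.645), dor (1.78) and spin (1.63) among the higher ones. In Mhc-positive cells none was higher and 5 were lower.

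The list of proton pump partners, with genes for assembly factors, the Ragulator complex, chloride and proton exchangers and carbonic anhydrases, had 17 tested genes. Its counts in the Mhc, Ppn and mex1 comparisons lay near the shares of all genes tested given above. In Ptx1-positive cells 6 were at least 2-fold higher and 1 lower, led by CAH1 (3.42), the chloride transporter gene ClC-c (1.94) and the sodium and proton exchanger gene Nhe3 (1.49). In mex1-positive cells 3 were higher and 2 lower, with CAH1 at 3.44 and CG5969 at 1.69. In esg-positive cells 2 were higher and 3 lower, with ClC-c at 1.85, Nhe3 at 1.29 and CAH1 at -2.03. In apolpp-positive cells 2 were higher and 9 lower, with the amino acid transporter gene path at 2.61 and Rab7, for a late endosome GTPase, at -2.37. In Ppn-positive cells 2 were higher, Rab7 (1.16) and ClC-b (1.04), and 4 lower. In Mhc-positive cells 2 were higher, CAH2 (1.52) and Rbcn-3A (1.45), and 1 lower. Mitf, for a transcription factor that controls pump genes in flies, had ratios between -0.67 in the Ppn and 0.78 in the esg comparison and passed 2-fold in none.

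Over the thinned cells, 1631 genes were read in at least 25% of cells, and their Spearman rho with the summed reads of the members, each member being left out of its own sum, was computed. The 15 members among them had a median rho of 0.57 and the 1616 other genes a median of -0.04. Of the 20 genes with the highest rho, 7 were members, with VhaPPA1-1 first (0.69), and the lowest-ranked member was Vha14-1 at rank 290 (0.26). The 10 other genes with the highest rho were Clic (0.66), sqh (0.66), Moe (0.64), scyl (0.62), CG8839 (0.61), zip (0.61), CG9743 (0.61), cpo, Mlc-c and Rab1 (0.60 each), of which sqh, zip and Mlc-c code for parts of non-muscle myosin and Moe for a linker of actin and membrane. Within single-marker classes the values varied among members and among other genes. In cells with Ppn only, VhaPPA1-1 had 0.36, Vha13 and Vha16-1 had 0.02 and 0.01, and of the other genes Rab1 had 0.27 and Clic 0.20. In cells with esg only, VhaPPA1-1 had 0.67, Vha13 0.57, Rab1 0.51 and Clic 0.06.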

How the data were processed

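Cells sorted as Mhc-GFP-positive from pooled Mhc-TAU-GFP embryos had been sequenced by Smart-seq2. The authors trimmed the reads and pseudo-aligned them to BDGP6 Ensembl cDNA, whose release is not given in the sources used here. The submitters' processing notes name kallisto 0.43.0 and R 3.5.1. The authors deposited estimated counts per gene in a series table, as whole numbers. Per transcript, each cell's file holds estimated counts and the TPM that the authors deposited. Transcripts were joined to genes through an Ensembl annotation of the same build: 30280 of 30651 found a gene, and the others held 0.216% of estimated reads. The member rows of the series table equalled the summed transcript counts within 0.51 reads for 100% of 18414 values.

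Of 837 cells, 809 had at least 500 genes at 10 reads and were kept. Mhc was read in 109 of them, Ppn in 228, apolpp in 338, esg in 94, mex1 in 40 and Ptx1 in 40. A gene was called read with at least 10 reads. CPM used reads outside 11 ribosomal RNA features. Marker classes were compared as log2 ratios of (mean CPM + 1), with a pseudocount of 1 CPM that lowers the ratios of low genes, over genes with 10 reads in at least 40 cells, and a gene was called at 2-fold. Thinning drew 106282 reads from each cell, the total at percentile 10, and kept 728 cells. Since the labels give 1 group without named animals or cultures, all cells are 1 sample and no test was run. Intervals cover counting error only, because PCR reads without molecular identifiers are not independent molecules. No doublet caller was run, and cells with several markers were kept.

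Every member was described. Of the partner and lysosome lists, genes among the 3 highest or 3 lowest ratios past 2-fold in a class could be named, and of other genes the 10 with the highest rho. The nSyb, elav, lab and CAH1 overlaps, the rho values within classes, Mitf and the separate values for plate 17 were chosen after their values had been seen. The members and lists were chosen with earlier results of these data known. Vha44 was matched to the annotation by symbol and VhaM8.9 by gene ID. Alternatives were the read threshold, thinning, the cell filter, library size, TPM, pooling, pseudocount, marker threshold, exclusive classes and leaving out plates; those for single members were added after the data had been seen. Python 3.11.15, numpy 2.4.6, pandas 2.3.3, scipy 1.17.1 and matplotlib 3.10.9 were used, and the scripts were tested on simulated data.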

Additional observations from a re-analysis of the deposited data

Results flagged for a closer look

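The annotation names 11 further proton pump genes that have no row in the series table, and the transcript files hold reads of some of them. By the paper's methods, a gene was kept only if at least 5 cells had 10 reads of it. None of these 11 genes had 10 reads in more than 3 cells. In 6 of these genes at least 1 cell had 10 or more estimated reads, above the 3 counts that a count of 0 allows. Vha68-3, another gene for subunit A beside Vha68-2 on chromosome 2L, reached 10 reads in 3 cells, and its highest level in a cell was 265.5 TPM. The highest level in a cell was 1643 TPM for Vha16-3 and 100.6 TPM for Vha16-4, both related to the ring subunit c. For Vha36-2, related to subunit D, it was 12.3 TPM, for VhaPPA1-2 30.5 TPM and for VhaAC39-2 51.1 TPM, and each of these 5 genes reached 10 reads in 1 cell. The 11 genes together had 0.0164% as many estimated reads as the 22 members.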

How the results depend on the processing

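No paired analysis was possible because the cells form 1 group and the labels pair none of them. The median share of cells per member, 61.2% as reported, was 68.2% with a threshold of 1 read, 49.8% (49.75 before rounding) with 50 reads and 55.2% (55.15 before rounding) after thinning, and the median number of members per cell, 12, became 9 with 50 reads and 10 after thinning. The summed level changed direction when medians over cells replaced means, to a log2 ratio of 0.22 for Mhc and 0.90 for Ppn. For apolpp it was -1.70 with medians and -1.74 with the marker at 1 read, against -2.29. The sums for esg, mex1 and Ptx1 moved by less than the SD over plates under every alternative run. Without 1 plate at a time the ratio of the sum lay between -0.72 (without plate 17) and -0.23 for Mhc, -2.40 and -2.26 for apolpp, 1.89 and 2.04 for esg, 1.68 and 1.93 for mex1, and 2.13 and 2.34 for Ptx1. The number of members at least 2-fold lower in Ppn-positive cells was 5 in place of 3 with cells of exactly this marker. Genes past 2-fold in either direction numbered 1670 for Mhc, 2249 for Ppn, 2328 for mex1 and 2625 for Ptx1; with 10 reads in at least 5 cells they numbered 2962, 3448, 3914 and 4178 of 8816 genes, and with no filter on low genes 2969, 3452, 3920 and 4185 of 8850, since more genes were compared. Vha68-2 in Mhc-positive cells had a log2 ratio of -3.41 with medians, -2.32 as the mean of within-plate ratios and -2.20 without plate 17, and Vha68-1 lay between 2.40 and 3.23 without 1 plate. With medians, Vha100-5 and Vha100-4 gave 0.0, since most cells of each class had none. Depth limited some of the less widely read genes: after thinning, 3 of 7 cells with Vha36-3 and 12 of 18 with VhaM9.7-a still had 10 reads, against 33 of 36 with Vha100-5.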

Other observations

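Genes that lead the cells with a sparsely read member were listed after their values had been seen, and they are given as values only. Of the 73 cells with Vha68-1, 20 had Argk, for arginine kinase, and 23 had Wnt4, against 5.16% and 4.89% of the cells without Vha68-1. CG31030, which the current annotation names as a relative of VhaAC45 and which the symbol rule left out, was read in 94 cells, and 37 of them were among the 73 with Vha68-1. Of the 18 cells with VhaM9.7-a, 8 had 7B2 and 9 had Rim, genes of peptide secretion and of the synapse, against 4.05% and 4.17% of the other cells. Of the 36 cells with Vha100-5, 26 had Tsp42Eb and 25 had the sodium and proton antiporter gene Nha2, against 2.59% and 17.1% of the other cells. Of the 7 cells with Vha36-3, 3 had the muscle gene Mp20 and 4 had Mlp60A, against 4.61% and 12.1% of the other cells.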
